A study of Rattus norvegicus with 10 samples.

Results

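The Zdhhc7 locus was examined here through the 41 tiles of 1000 bp that lie within 100 kb of the tile at the Zdhhc7 promoter, out of 176032 tiles in the hippocampal methylation table. The promoter tile is the 1000 bp of chromosome 19 that end at position 48158000 of mRatBN7.2, and the study's annotation places it in the promoter of Zdhhc7 and in a CpG shore, the flank of a CpG island. That tile was chosen by its measured values, because its methylation was lower in HCR rats, and its line difference is therefore given as a description without a test. The other 40 tiles were chosen by position alone, with starts from 48057001 to 48257001, and they filled 20.4% of the 201 tile positions of the window together with the promoter tile. Hippocampal DNA came from 4 high-capacity runner (HCR) and 6 low-capacity runner (LCR) rats, all of them 23 to 24 months old, female and taken from generation 44 of lines bred apart on running capacity. They were kept without running wheels or training and received no treatment, and had been through treadmill and behavioural testing. Other HCR samples failed the study's quality control, which used sequencing measures and principal component analysis, and are not analysed here. No LCR sample was dropped, and the effect of this choice on the HCR values was not tested. The lines descend from 1 genetically mixed stock and differ in inherited background as a whole, so capacity and any other line difference cannot be told apart. Reduced representation bisulfite sequencing (RRBS) cuts DNA with the enzyme MspI and reads CpG-rich fragments, and each value is the percent methylation of a tile in 1 rat. Hippocampal tissue holds neurons and glia, so a changed share of cells and a changed methylation per cell cannot be told apart in any tile.

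Zdhhc7 encodes a palmitoyltransferase of the DHHC family, a Golgi enzyme that joins the fatty acid palmitate to cysteines of other proteins through a thioester bond. The bond is reversible, being cut by thioesterases, and it fixes soluble proteins to membranes and helps to sort membrane proteins. In neurons this cycle acts on synaptic scaffolds, receptor subunits and vesicle proteins. Promoters with a CpG island usually carry little methylation at the island, and methylation climbs through the shores that flank it.

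The promoter sequence of Zdhhc7 from RefSeq is shown because RRBS starts at MspI sites and the sequence shows how densely they are set at this promoter. It covers 250 bases before and 50 bases after the start of the gene on the minus strand of GRCr8 at chr19:65065237-65065536. GRCr8 is a later build than that of the tiles, so the place of these bases within the tiles was not determined. Capitals mark the MspI site CCGG, which reads the same on both strands.
Zdhhc7 promoter: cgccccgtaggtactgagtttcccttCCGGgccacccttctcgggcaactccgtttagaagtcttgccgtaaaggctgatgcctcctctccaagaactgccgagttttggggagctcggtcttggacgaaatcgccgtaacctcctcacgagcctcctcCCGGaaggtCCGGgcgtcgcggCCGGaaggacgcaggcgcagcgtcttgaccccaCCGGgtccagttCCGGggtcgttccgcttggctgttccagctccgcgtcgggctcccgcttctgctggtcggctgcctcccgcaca
The sequence holds 6 MspI sites, the first at base 27 and the last at base 227 from its 5′ end, and 31 CpGs. Of 33469 RefSeq promoters of the same length, 51.4% hold at least 1 such site, 4.17% hold 6 or more, and 90.7% have fewer CpGs. The neighbouring genes with a promoter in the RefSeq table are Crispld2 on one side and 6430548M08Rikl on the other. The promoter of Crispld2 has 3 CpGs and 1 MspI site and that of 6430548M08Rikl has 33 CpGs and 5 sites. Only the promoter tile of the window carries a gene in the study's annotated lists as used here, so the gene content of the other 40 tiles is not given.

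At the promoter tile, methylation was 23.4%, 25.6%, 25.6% and 22.1% in HCR rats 1, 11, 15 and 19. In LCR rats 12, 18, 22, 24, 26 and 30 it was 55.1%, 50.9%, 47.0%, 39.1%, 31.0% and 46.0%. Every HCR rat lay below every LCR rat, and 5.43 points separated the highest HCR rat from LCR rat 26, the lowest of its line. The means were 24.1% ± 1.72 in HCR rats (SD, n = 4), against 44.9% ± 8.62 in LCR rats (SD, n = 6), a difference of -20.7 points. Over the whole table, 0.367% of the 126459 tiles measured in every rat also had all HCR rats below all LCR rats, and 1.53% had them all above. These values chose the tile, so nothing is read from that comparison. The difference stayed between -23.5 and -18.7 points when each rat was left out in turn.

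The HCR rats were close to each other at this tile and the LCR rats were not. The SD was 1.72 points among HCR rats and 8.62 points among LCR rats. The 47714 fully measured tiles with an average level of 20 to 80% had a median SD of 9.08 points in HCR and 9.64 points in LCR rats. The tile was chosen on these same values, and a choice by line difference favours tiles with a narrow group, so nothing is read from the spread. The read depth behind the percentages is unknown, and its part in these spreads was not tested.

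**Figure D1:**
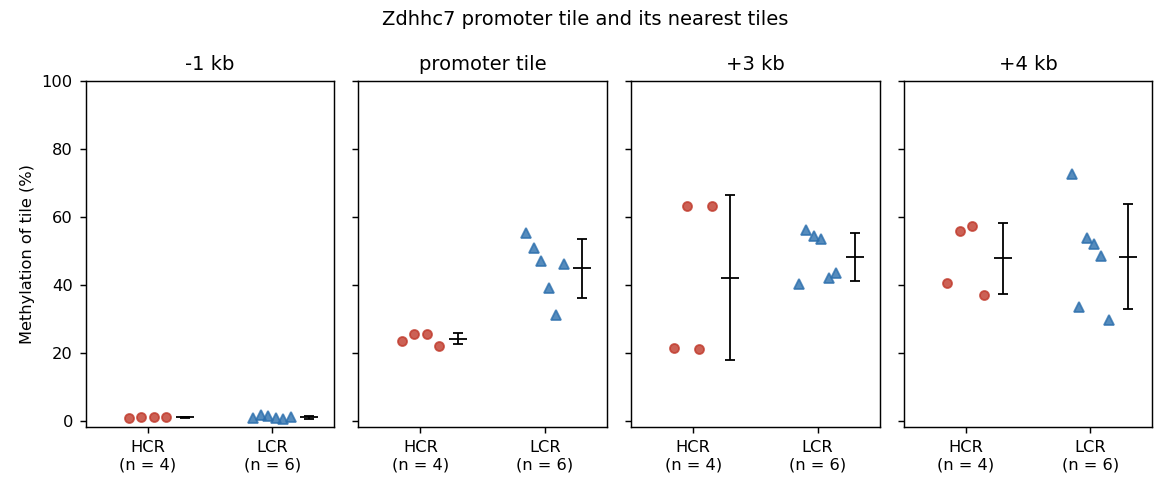
Methylation (%) of the Zdhhc7 promoter tile and of the tiles 1 kb below it and 3 and 4 kb above it, one point per rat (HCR circles, LCR triangles), with bars for mean ± SD beside the points. The 4 HCR rats sit between 22.1% and 25.6% at the promoter tile, below all 6 LCR rats, while the lines overlap in the other 3 tiles.

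The tile that adjoins the promoter tile, from 48156001 to 48157000, was unmethylated in both lines. It was at 0.817%, 1.17%, 1.13% and 0.948% in HCR rats 1, 11, 15 and 19, and LCR rats ranged from 0.507% to 1.66% (median 0.903%). The means were 1.02% ± 0.165 in HCR rats (SD, n = 4), against 1.04% ± 0.439 in LCR rats (SD, n = 6), -0.03 points apart (limma adjusted p = 0.993). In all 10 rats the tile averages were therefore under 2% in this tile and above 20% in the promoter tile, and the values per tile do not place the change more finely. In the table as a whole, 1169 tiles with a value in every rat and an average level of 20 to 80% adjoin a tile that was under 5% in every rat. In these tiles the median line difference was 2.43 points and 69.4% were higher in HCR rats. Over all 70099 tiles of 20 to 80% the median was 3.41 points and 68.0% were higher in HCR rats, a similar share. This larger set includes 22385 tiles without a value in every rat, so the sets are unlike and nothing is read from the medians.

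On the other side the nearest tiles with values lie 3 and 4 kb from the promoter tile, and both had intermediate levels. The tile from 48160001 to 48161000 was at 21.3%, 63.1%, 21.0% and 63.2% in HCR rats 1, 11, 15 and 19, so that HCR rats 1 and 15 were far below HCR rats 11 and 19. In LCR rats it ranged from 40.3% to 56.2% (median 48.4%), all between these pairs of HCR rats. The difference was -6.13 points (standard error 10.2, limma adjusted p = 0.936), and it was above 0 without HCR rat 1 or 15. The tile from 48161001 to 48162000 averaged 47.7% ± 10.4 in HCR rats (SD, n = 4), against 48.3% ± 15.6 in LCR rats (SD, n = 6), -0.58 points apart (limma adjusted p = 0.995). A tile 6 kb away was at 63.9% to 100% in HCR rats and at 55.6% to 100% in 5 LCR rats.

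Along the whole window, methylation alternated between low and high stretches in both lines. Of the 40 tiles beside the promoter tile, 4 had an average level under 5%, 3 were at 5 to 20%, 21 at 20 to 80% and 12 at 80% or over. Tiles of 20 to 80% made up 52.5% of the window and 39.8% of all tiles, and tiles under 5% made up 10% of the window and 15.3% of all tiles. The median level was 62.8% in the window and 62.7% over all tiles.

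The 4 unmethylated tiles had the smallest range over rats of the window. Beside the tile that adjoins the promoter, they were the tile 12 kb above it, at 0.704% to 1.44% in HCR and 0.714% to 1.23% in LCR rats, and a pair of adjoining tiles at 85 and 86 kb. The pair ranged from 0.585% to 2.57% in HCR rats and from 0.428% to 1.30% in LCR rats. A tile 14 kb above the promoter tile, from 48171001 to 48172000, was at 16.4% ± 2.64 in HCR rats (SD, n = 4), against 13.1% ± 4.35 in LCR rats (SD, n = 6), a difference of 3.28 points (limma adjusted p = 0.823). At the ends of the window, the tile from 48061001 was at 19.97% in HCR rats, against 22.3% in LCR rats, and the tile from 48255001 at 82.4% in HCR rats, against 81.6% in LCR rats. The first tiles outside, each 104 kb from the promoter tile, were at 1.47% and 89.9% in HCR rats and at 1.60% and 93.96% in LCR rats. Tiles further out are not described.

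**Figure D2:**
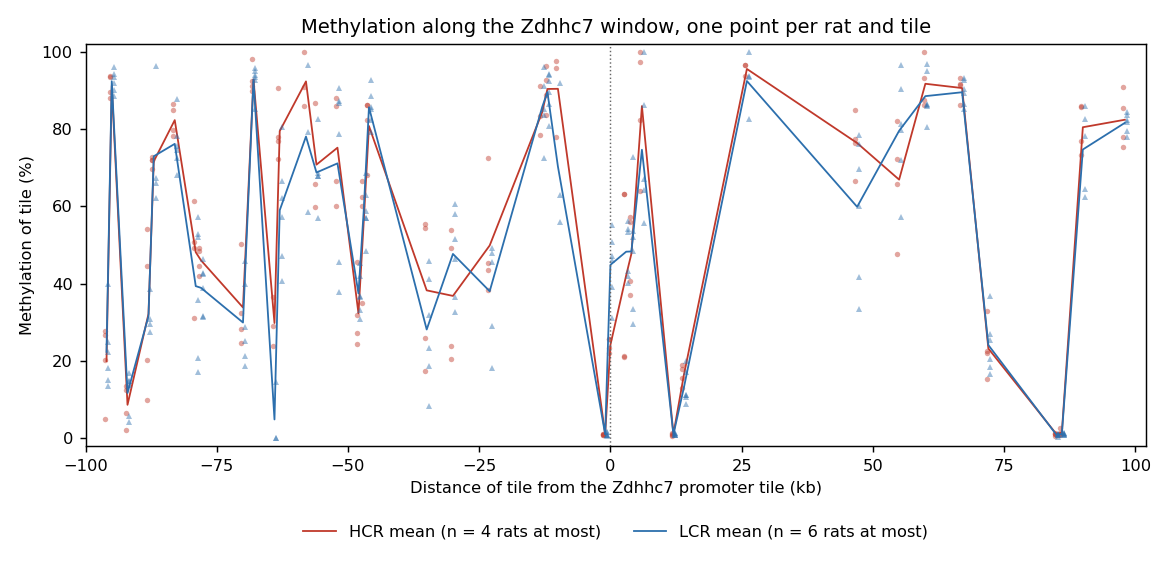
Methylation (%) of the 41 tiles against their distance in kb from the Zdhhc7 promoter tile (dotted line), one point per rat with a value (HCR circles, LCR triangles) and lines joining the line means. The 2 mean profiles run together at the low tiles near 1% and lie 10 points or more apart at 10 of the 40 other tiles. At the promoter tile, chosen for its difference, the HCR mean is 24.1% against 44.9% in LCR rats.

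None of the 40 other tiles passed the limma test over all tiles (adjusted p under 0.1 and at least 5 points; the smallest adjusted p was 0.346), where 151 of the 176004 tiles tested, 0.0858%, passed. The count was also 0 with ordinary t statistics. At that rate less than 1 call is expected among 40 tiles, and the count of 0 does not set the window apart. At an unadjusted p under 0.05, 2 of the 40 tiles were found, beside 7.18% of all tiles. In no other tile of the window with a value in every rat did the lines stay free of overlap. HCR rats had the higher mean in 26 of the 40 tiles and the lower in 14, that is 65% higher, beside 64.7% of all tiles. The median difference was 0.81 points in the window and 1.01 points over all tiles. The line means lay 10 points or more apart, in either direction, in 10 of the 40 tiles, 25%, beside 13.1% of all tiles. At a level of 20 to 80% the shares were 28.6% of the window tiles (6 of 21) and 25.9% of all tiles. At 80% or over they were 25% (3 of 12) and 6.89%, and under 20% they were 14.3% (1 of 7) and 1.85%. Those 3 tiles at 80% or over and the 1 tile under 20% lacked a value in some rats. These shares were not tested. Chromosome 19 as a whole held 10 called tiles among 5683.

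Both tiles found at that unadjusted limit were adjoining, 64 and 63 kb below the promoter tile, and both were higher in HCR rats. The first, from 48093001 to 48094000, had a value in 6 rats, at 36.7%, 23.8% and 28.9% in HCR rats 1, 15 and 19 and at 0%, 0% and 14.6% in LCR rats 22, 24 and 26. The difference was 24.9 points (standard error 5.11, unadjusted p = 0.00202 and adjusted p = 0.346 from limma), and the lines did not overlap in these 6 rats. How many tiles with 3 values per line are free of overlap was not counted, so nothing is read from that. The second, from 48094001 to 48095000, was at 90.5%, 72.3%, 78.0% and 77.0% in HCR rats 1, 11, 15 and 19. LCR rats ranged from 40.6% to 80.4% (median 59.6%), LCR rat 24 lying above 3 of the HCR rats, and the difference was 20.5 points (standard error 7.57, unadjusted p = 0.0209 and adjusted p = 0.601 from limma). Neither tile passed the test over all tiles.

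Among the other tiles measured in every rat, the difference was largest at the tile from 48204001, 47 kb above the promoter tile. It averaged 76.4% ± 7.47 in HCR rats (SD, n = 4), against 59.9% ± 18.7 in LCR rats (SD, n = 6), 16.5 points (limma adjusted p = 0.763), and LCR rats alone covered 33.3% to 78.4%. The tile from 48212001 went the other way, at 66.9% ± 14.4 in HCR rats (SD, n = 4), against 79.5% ± 13.9 in LCR rats (SD, n = 6), -12.6 points (limma adjusted p = 0.806). A further pair of tiles below the promoter tile had opposite signs and wide spread. The tile from 48127001 was at 20.4%, 53.8%, 23.9% and 49.2% in HCR rats 1, 11, 15 and 19, against 32.8% to 60.6% in LCR rats (-10.9 points, limma adjusted p = 0.856). The tile from 48122001 was at 26.01%, 54.3%, 17.4% and 55.3% in the same HCR rats, against 8.21% to 45.9% in LCR rats (10.1 points, limma adjusted p = 0.880). In both, as at 48160001, HCR rats 1 and 15 lay below HCR rats 11 and 19. In each of these tiles the lines overlapped. Single rats moved the last 3 differences by over 1.5 times. Without HCR rat 15 the difference at 48212001 was -6.24 points. At 48127001 it was -5.38, -16.5 and -6.54 points without HCR rats 1, 11 and 15, and at 48122001 it was 4.77, 17.1 and 4.43 points without HCR rats 11, 15 and 19 and 6.14 points without LCR rat 18.

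**Figure D3:**
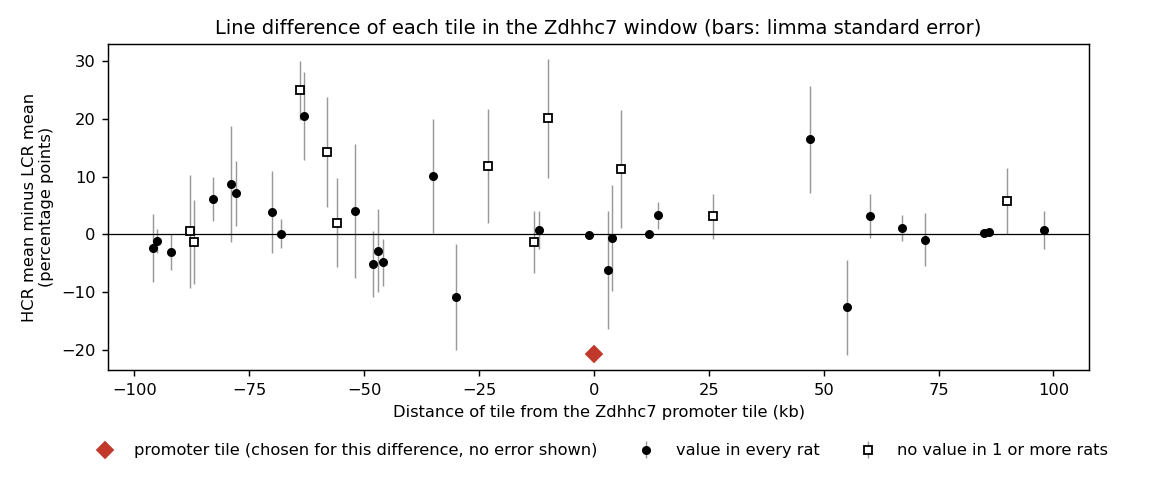
HCR mean minus LCR mean in percentage points for each tile, against distance in kb from the Zdhhc7 promoter tile; bars are limma standard errors, open squares are tiles without a value in at least 1 rat, and the diamond is the promoter tile, chosen for its difference of -20.7 points. The other 40 tiles lie between -12.6 and 24.9 points.

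The lowest difference among the tiles chosen by position was the -12.6 points at 48212001. Within 20 kb of the promoter tile, tiles measured in every rat averaged -0.43 points, within 50 kb 0.03 points and over the whole window 1.26 points, the promoter tile left out. The average within 20 kb leaves out incomplete tiles from 48144001, 48147001 and 48163001, with differences of -1.32, 20.1 and 11.3 points. Over the 29 window tiles measured in every rat, the rats averaged 50.1% ± 4.47 in HCR rats (SD, n = 4), against 48.9% ± 2.61 in LCR rats (SD, n = 6). When rats were scaled to equal means the window average was -0.65 points and after quantile normalization -1.20 points, so its sign rests on the scaling.

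The rats themselves differed in overall methylation, and at the promoter tile they stood in another order. Over tiles measured in all 10 rats, HCR rats 1, 11, 15 and 19 averaged 46.8%, 49.6%, 46.2% and 51.3%, and LCR rats 43.9% to 49.8%. The 29 window tiles averaged 47.7%, 54.0%, 45.1% and 53.8% in the same HCR rats and 45.5% to 53.2% in LCR rats. In both averages HCR rats 11 and 19 lay above HCR rats 1 and 15, but the highest was HCR rat 19 overall and HCR rat 11 in the window. At the promoter tile, HCR rat 19, with the highest overall mean of all rats, had the lowest value, 22.1%. LCR rat 12 had the highest promoter value, 55.1%, at an overall mean of 45.3%, and LCR rat 26 had the lowest of its line, 31.0%, at a similar overall mean of 45.8%. With rat means set equal, the difference at the promoter tile was -22.6 points. The promoter tile was chosen on these same values, so nothing is read from the order of the rats there.

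**Figure D4:**
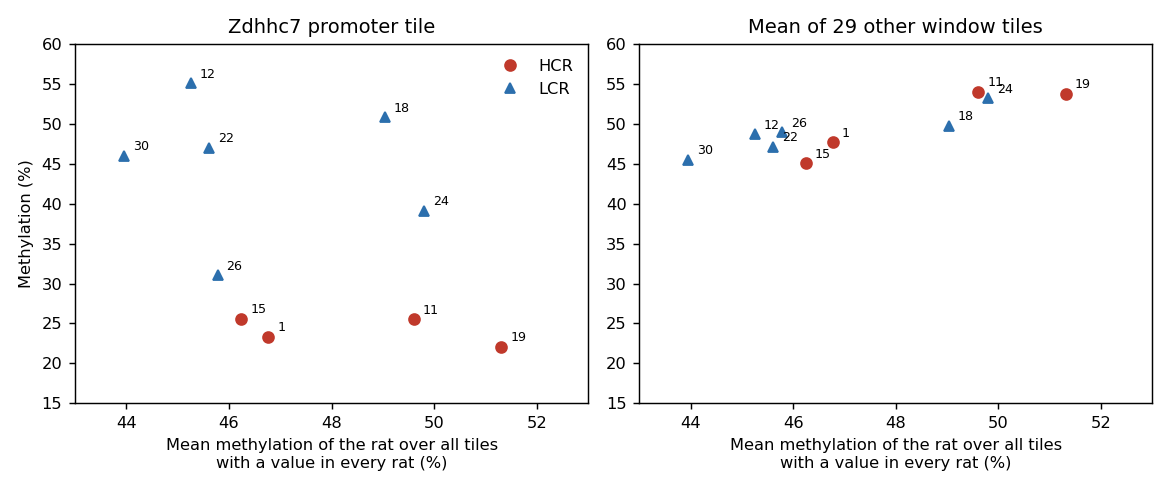
Methylation (%) of the Zdhhc7 promoter tile (left) and mean methylation of the 29 other window tiles measured in every rat (right), each against the mean methylation of the rat over the whole table, one point per rat with its number. The window mean is between 45.1% and 54.0% in HCR rats and between 45.5% and 53.2% in LCR rats, with the lines mixed. The promoter tile, chosen on these values, is at 22.1% to 25.6% in HCR rats and at 31.0% to 55.1% in LCR rats.

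Values were missing in part of the window. HCR rats 1, 11, 15 and 19 had a value in 40, 40, 37 and 41 of the 41 tiles, and LCR rats in 35 to 40 (median 37.5). Of the 40 tiles, 11 lacked a value in at least 1 rat, 8 of them on the side of lower coordinates. They include the tile from 48147001, 10 kb below the promoter tile, at 77.9%, 97.5% and 95.8% in HCR rats 1, 11 and 19 and at 62.9%, 91.9% and 56.0% in LCR rats 22, 24 and 26 (20.1 points, limma adjusted p = 0.752). The promoter tile itself and the unmethylated tiles had a value in all 10 rats.

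The tiles of the whole table most like the promoter tile were found by the root mean square difference of their values over the 10 rats. The closest, 6.90 points away, lies on chromosome 16 from 18157001 to 18158000, in an intron of Dda1 and a CpG shore by the study's annotation. It was at 17.7%, 26.7%, 27.0% and 25.5% in HCR rats 1, 11, 15 and 19 and at 38.8% to 53.1% in LCR rats. Dda1 encodes a small subunit associated with DDB1 ubiquitin ligases. Another, 7.77 points away, lies on chromosome 18 from 27635001 in an intron of Nrg2, a neuregulin that signals through ERBB receptors, at 12.5% to 31.5% in HCR and 29.6% to 51.3% in LCR rats. The other 3 of the closest 5, on chromosome 1 from 46407001, chromosome 19 from 10072001 and chromosome 8 from 65173001, carry no gene in the lists used. They were 7.07, 7.91 and 8.07 points away. The tile on chromosome 19 is outside the window, where the closest tile, from 48109001, was 12.1 points away and ranked 343 of 126458. This measure takes level and line difference together, so tiles low in HCR rats are favoured by its construction.

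Of 50 other genes of the palmitoylation cycle, 5 had a tile in the study's lists of differing tiles as used here (2 of 26 palmitoyltransferases and partners, 0 of 8 depalmitoylases and 3 of 16 substrates), and 0 of these 5 tiles passed the limma test over all tiles, beside 0.0858% of all tiles, while 4 had an unadjusted p under 0.05, beside 7.18% of all tiles. Ordinary t statistics also gave 0 calls. The lists used held 2347 of the 176032 tiles and stop short of the end of the study's longer list. The study selected these tiles on the same rats, so nothing is read from these counts and the directions are no independent evidence. Among palmitoyltransferases, a tile upstream of Zdhhc22, on chromosome 6 from 106640001, was at 33.7%, 36.9%, 35.9% and 30.6% in HCR rats 1, 11, 15 and 19 and at 14.9% to 26.2% (median 23.5%) in LCR rats, without overlap. The difference was 12.2 points (limma adjusted p = 0.426), opposite in sign to that of the Zdhhc7 promoter tile. An exonic tile of Zdhhc25, on chromosome 7 from 119693001, was at 93.6% ± 1.85 in HCR rats (SD, n = 4), against 88.1% ± 3.51 in LCR rats (SD, n = 6) (5.49 points, limma adjusted p = 0.641).

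Of the 5 tiles, 3 belong to genes whose proteins are reported substrates of Zdhhc7, and those in Ncam1 and Pde10a are described here. An intronic tile of the neural adhesion molecule gene Ncam1 averaged 59.8% ± 6.45 in HCR rats (SD, n = 4), against 47.1% ± 9.70 in LCR rats (SD, n = 6) (12.7 points, limma adjusted p = 0.750). An intronic tile of Pde10a, which encodes a cyclic nucleotide phosphodiesterase, was at 4.23% to 42.2% in HCR and 3.29% to 10.9% in LCR rats (15.9 points, limma adjusted p = 0.578), the lines overlapping. No tile of the depalmitoylases, the thioesterases that remove palmitate, was in the lists used, among them Ppt1 and Lypla1. Because the study's longer list was not used to its end, such genes may still have a tile in it.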

How the data were processed

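Per the labels, RRBS libraries of hippocampal DNA were sequenced in paired-end mode. Per the submitters' processing notes and the methods, the authors used Trim Galore 0.6.10 for trimming, FastQC and MultiQC for quality, Bismark with Bowtie2 for alignment to build mRatBN7.2 (rn7), and methylKit to drop CpGs under 5x or above the 99.9th percentile of coverage. The table holds, as deposited, percent methylation in non-overlapping tiles with at least 3 covered CpGs, per rat, unscaled between rats. Read counts were not used, so depth, counting intervals and the chi-square test of the methods were not available for this table and limma was applied to the percent values instead. Libraries were pooled for conversion in pools whose members are not named, so no values within pools are given.

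Rats were grouped by their labels. Tiles with at least 3 values per line that varied (176004, 28 tiles without variation left out) were fitted with limma 3.58.1 in R 4.3.3 (eBayes with trend, no covariate), HCR against LCR, with Benjamini-Hochberg adjustment over all tiles. A call needed an adjusted p under 0.1 and 5 points. The fit was tested on simulated data. Levels are the average of both line means. Summaries used Python 3.11.15, pandas 2.3.3 and NumPy 2.4.6, and figures Matplotlib 3.10.9.

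The window, gene lists and tests were chosen with earlier results of these data known. The promoter tile runs from 48157001 to 48158000, and the window holds tile starts from 48057001 to 48257001. Named tiles are those within 5 kb of the promoter tile, called tiles, and the 5 with the largest difference and a value in every rat. The tiles at 48093001 and 48147001, the low tiles and the tiles 6 and 14 kb away were named after their values were seen. The rule also named tiles in the gene body, other promoters and promoter tiles of 50 palmitoylation genes (26 palmitoyltransferases and partners, 8 depalmitoylases, 16 reported substrates). These could not be placed, because the annotation at hand is of build GRCr8; gene names of tiles come from the study's annotated lists of differing tiles, of which 2347 tiles were used, the longer list not to its end. The differences, p-values and means in those lists were not used. RefSeq promoters are 300 bases long. The values of 1 of the 5 tiles of palmitoylation genes are not reported here.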

Additional observations from a re-analysis of the deposited data

Results flagged for a closer look

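In 2 of 73 sets of 4 or 6 rats of 1 line at a window tile (or 5 where a value was missing), 1 rat stood apart from the rest of its line by more than the 95% limit for the gap to the nearest rat over the range; about 1 set in 20 does so by chance. At the tile from 48070001, 87 kb below the promoter tile, LCR rat 12 was at 96.25% and the other 3 LCR rats with a value at 62.2% to 67.3%, while HCR rats were at 69.7% to 72.7%. At the tile from 48089001, LCR rat 18 was at 85.2% and the other LCR rats at 92.6% to 95.9%, with HCR rats at 89.7% to 98.1%. Neither rat stood apart in this way at the Zdhhc7 promoter tile.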

How the results depend on the processing

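No paired analysis was run because the HCR and LCR rats are separate animals that no label pairs. The count of called window tiles, the promoter tile left out, was 0 with the logit scale (1 point added at each end), with tiles complete in every rat, without trend, with ordinary t statistics, with rat means set equal, after quantile normalization, at adjusted p under 0.05, at 10 points, within 50 kb and without each rat in turn (0 to 0). It was 1, the tile at 48093001, at an unadjusted p under 0.005 and 5 points. At an unadjusted p under 0.05 there were 0 to 3 such tiles when 1 rat was left out, 0 of them without HCR rat 1. Over the whole table the 151 calls were 67 on the logit scale, 262 without trend and 22 to 100 without single rats, the lowest without HCR rat 1. The difference at the promoter tile was -22.6 points with rat means set equal, -23.3 after quantile normalization and -22.1 between medians. The average difference of the other 29 tiles ranged from -0.04 to 2.94 points without single rats, the lowest without HCR rat 11, and was 1.45 points with medians over tiles and 0.53 with the promoter tile included. The differences of the 3 tiles nearest the promoter tile changed sign: at 48156001 it was 0.0038 on the logit scale and -0.13 to 0.10 points without single rats, at 48160001 (-6.13 points with all rats) -13.2 to 0.92 and at 48161001 -4.33 to 4.30. The other 7 named tiles kept their sign in every setting that gave a value. Without single rats the difference ranged from -17.7 to -6.24 points at 48212001, from -16.5 to -5.38 at 48127001, from 4.43 to 17.1 at 48122001, from 11.2 to 20.2 at 48204001 and from 16.8 to 24.8 at 48094001. These 7 tiles had adjusted p from 0.340 to 0.981 by limma or ordinary t statistics. Tiles at 48093001 and 48147001 have 3 values per line and gave none when one of those was left out, nor where complete tiles were required. Promoter tiles of the palmitoylation genes were not placed, so their count and its alternatives were not run. The unknown depth per tile limits all values.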
